A study of Mus musculus with 24 samples.

Results

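The 24 libraries were ordered by their own Fos and Arc transcripts, and the 12 libraries with the highest levels (High) were set against the 12 with the lowest (Low). Fos encodes an AP-1 transcription factor and Arc a synaptic protein that regulates AMPA receptor traffic. The score of a library was the mean of log2(CPM + 1) of the 2 genes, where CPM is the read count scaled to a library total of 1e6 reads. The classes were therefore chosen on measured values, and Fos and Arc are given below as a description with no test. The other genes come from the same libraries but had no part in choosing the classes.

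Fos and Arc are immediate early genes. Synaptic activity raises calcium in a neuron, kinases then activate transcription factors that are already present, such as CREB at CRE sites and SRF with its partners at CArG boxes, and the first genes are transcribed within minutes without new protein synthesis. The first wave holds transcription factors and feedback inhibitors of the same kinase pathways, and a later wave, which needs these factors, holds secreted and synaptic effectors. The messages of the first wave decay quickly, so their level in dissected cortex is read as a mark of activity shortly before the tissue was taken. Activity itself was not measured here. Vascular and glial cells also switch on part of the first wave.

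RNA was sequenced from entorhinal cortex dissected from mice aged 2 to 4 months, in 4 treatment groups of 6 libraries, namely vehicle and days 1, 2 and 3 counted from activation of the transgenic channel. All mice, vehicle included, had the genotype tg/tg on the cross Nop-tTA Line S x TRE-GlyCl-YFP Line 9531, in which a driver active mainly in superficial entorhinal neurons expresses a glycine receptor chloride channel that silences them when activated. The agent and the collection time of the vehicle mice are not given in the labels, and neither is the hour of death. The tissue was taken whole, so the values mix the silenced neurons with every other cell of the dissection, and fewer cells of a type cannot be told apart from less RNA per cell. The vehicle mice were 4 females and 2 males, and both sexes were equal in number, 3 and 3, on each day.

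Libraries held 16.6 to 23.7 M reads. Depth averaged 19.3 ± 2.07 M reads in High libraries and 19.4 ± 1.55 M reads in Low libraries (SD, n = 12 each). Each treatment group contributed 3 High and 3 Low libraries. High libraries came from 5 females and 7 males and Low libraries from 8 females and 4 males, so sex was fitted beside treatment. The animal numbers in the labels begin with 7 different pairs of digits; 6 of the 7 held libraries of both classes, and both libraries of the other one were Low. Choroid plexus RNA, read from its main transcript Ttr, stood above 100 CPM in 4 High and 4 Low libraries.

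Fos ran from 36.8 through a median of 52.9 to 64.0 CPM in High libraries, and from 7.07 through 20.1 to 42.3 CPM in Low libraries. Arc ran from 206 through 299 to 448 CPM in High libraries, and from 31.3 through 119 to 199 CPM in Low libraries. Between the lowest and the highest library Fos spanned 9.05-fold and Arc 14.3-fold. Day 3 replicate 3 had the highest score, 7.33, and day 1 replicate 1 the lowest, 4.01. The last library inside High, day 3 replicate 1, scored 6.55, and the first inside Low, day 2 replicate 6, scored 6.54. The scores thus formed a gradient with no gap at the boundary, and the widest step, 0.676, lay between day 2 replicate 1 and day 1 replicate 1 at the low end. Arc alone gave the same classes, and Fos alone moved 4 libraries. The median score was 6.21 in vehicle, 6.08 at day 1, 6.75 at day 2 and 6.52 at day 3, and the ranges of the 4 groups overlapped.

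**Figure D1:**
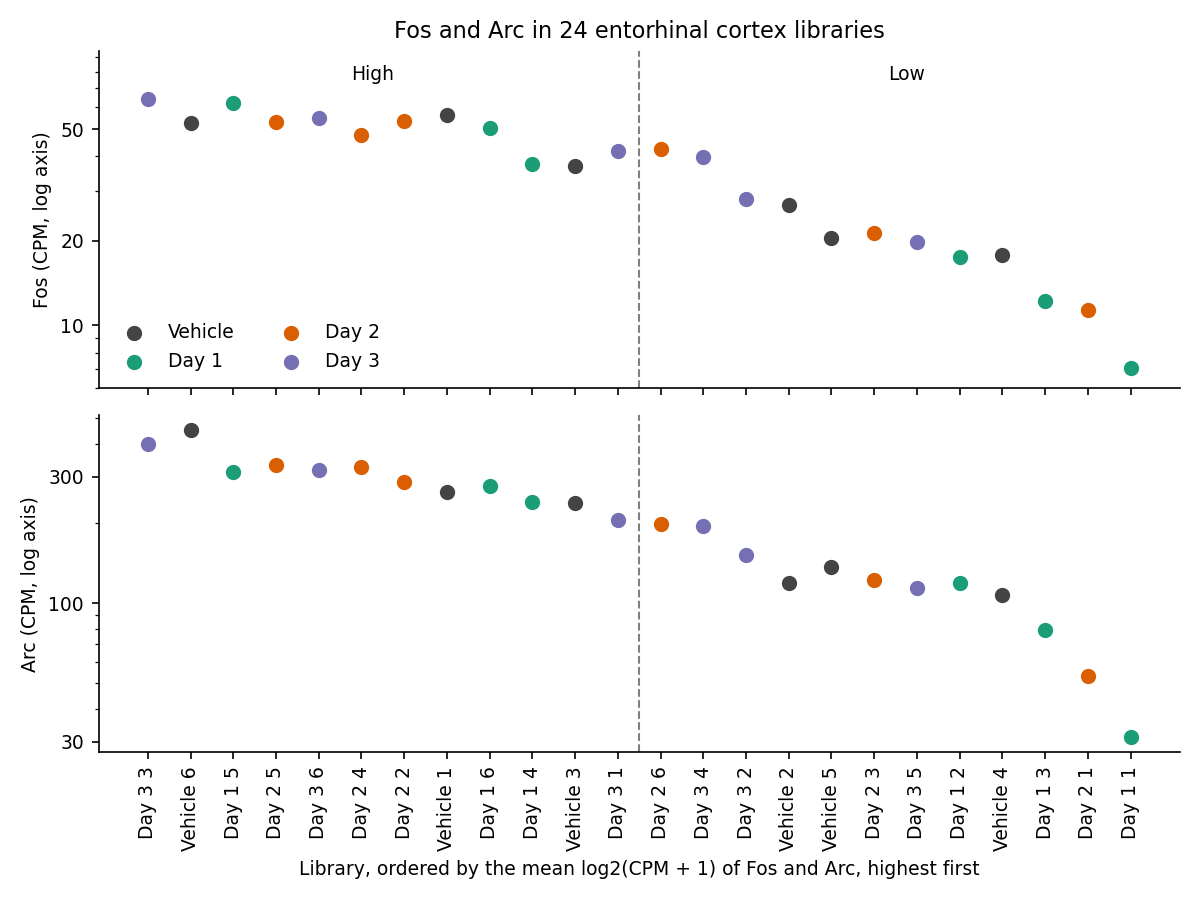
CPM of Fos (top) and Arc (bottom) on log axes in each of the 24 libraries, ordered from the highest to the lowest mean log2(CPM + 1) of both genes; colours are treatment groups and the dashed line separates the 12 High from the 12 Low libraries. Both genes fall along a gradient, with every treatment group on both sides and day 1 replicate 1 lowest at 7.07 CPM of Fos and 31.3 CPM of Arc.

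The genes that followed the classes were few, and most were immediate early genes. Among 16765 genes tested with treatment and sex in the model, 23 were higher in High libraries (0.137% of genes) and 1 was lower (0.00596%), 24 in all (0.143%), at an adjusted p under 0.05 by edgeR's quasi-likelihood test. An unadjusted edgeR p under 0.05 was reached by 948 genes. Among so many tests that threshold also passes many genes without any difference, so the count does not show a further group. The lists of rapid transcription factors, rapid effectors and kinase feedback genes held 55 of the tested genes. Of these 18 were called higher, 0 were called lower by edgeR (7 of the 55 had a log2 fold change below 0) and the median log2 fold change was 0.16, against a median of -0.0014 over all genes tested. The lists were written with earlier results of these data known, so their count is a description.

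**Figure D2:**
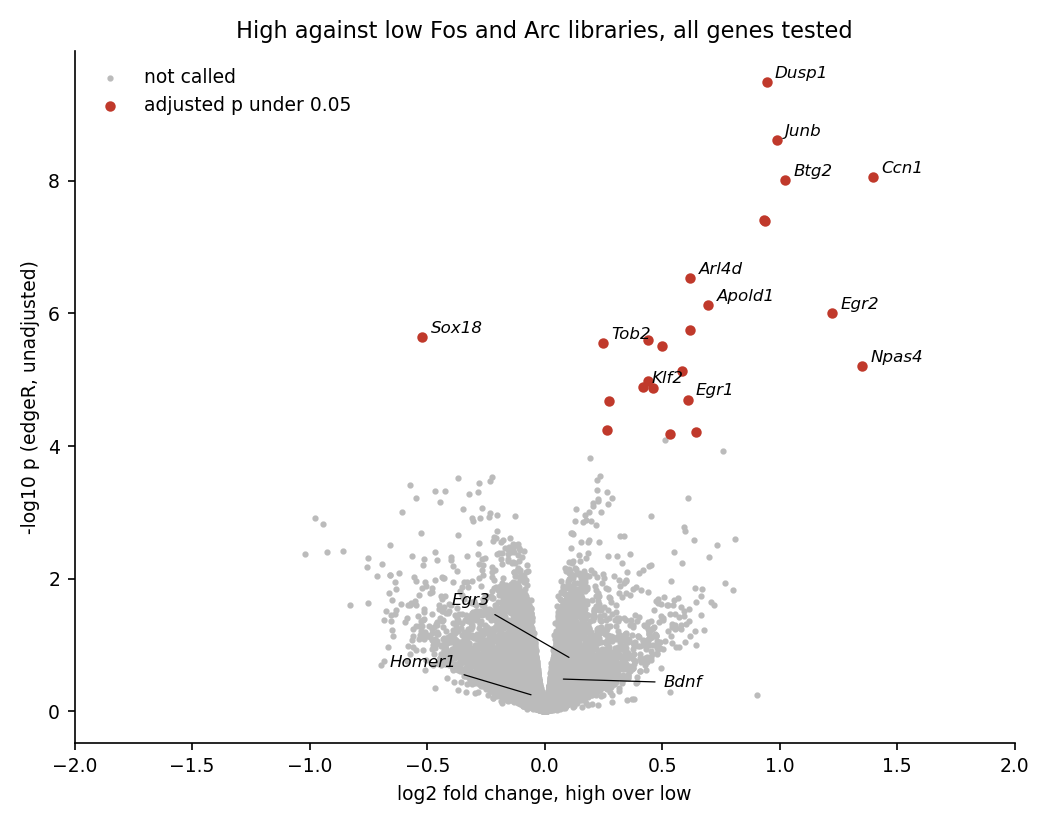
Log2 fold change of High over Low libraries (horizontal) against -log10 of the unadjusted edgeR p (vertical) for all 16765 genes tested; red points had an adjusted p under 0.05. The called genes lie to the right, led by Dusp1, Junb, Ccn1 and Btg2, and Sox18 is the called gene on the left, while Egr3, Homer1 and Bdnf lie among the grey points near 0.

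Dusp1 (ENSMUSG00000024190.8), the phosphatase that switches off MAP kinases, separated the classes completely. It ran from 40.8 through a median of 55.8 to 67.3 CPM in High libraries, and from 17.05 through 28.4 to 40.3 CPM in Low libraries. Its log2 fold change was 0.94 ± 0.10 (SE, n = 12 each; edgeR adjusted p = 5.50e-06). Dusp1 was the only one of the genes tested (0.00596%) whose 12 High libraries all lay above all 12 Low libraries. Fos and Arc set the classes and were not among the genes tested. Arc also lay apart (206 CPM and above against 199 CPM and below). Fos overlapped, with 36.8 CPM in its lowest High library and 42.3 CPM in its highest Low library. Junb (ENSMUSG00000052837.8), an AP-1 transcription factor, ran from 122.8 through 147.7 to 170.0 CPM in High libraries, and from 41.0 through 72.9 to 129.4 CPM in Low libraries. Its log2 fold change was 0.99 ± 0.11 (edgeR adjusted p = 2.07e-05), and 10 of 12 High libraries lay above every Low library.

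Promoter sequence was at hand for 19 of the 23 genes that were higher and for Fos, from RefSeq on GRCm38.p6. The 250 bases before each start were searched on both strands for 5 motifs. Fos had no match to any of them, but sites further upstream or with other letters were outside the search. A full CRE (TGACGTCA) stood within the 250 bases in 3 of the 19 genes, Dusp1, Btg2 and Arl4d, against 1.77% of the 27025 genes in the table. Their 100-base stretches are shown because these are the matches to the CREB motif among the genes that rose, with the motif in capitals, 5′ to 3′ on the strand of the gene.
Dusp1, chr17:26508562-26508661, minus strand: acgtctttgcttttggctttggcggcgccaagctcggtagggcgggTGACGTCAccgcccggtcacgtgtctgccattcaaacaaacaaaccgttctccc
Btg2, chr1:134079268-134079367, minus strand: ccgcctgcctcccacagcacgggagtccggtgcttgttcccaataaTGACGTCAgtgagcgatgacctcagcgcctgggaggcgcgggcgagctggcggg
Arl4d, chr11:101665441-101665540, plus strand: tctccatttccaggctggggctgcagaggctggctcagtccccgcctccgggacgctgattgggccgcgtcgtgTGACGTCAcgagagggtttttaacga
The first base of the motif lay 143 bases before the start in Dusp1, 166 in Btg2 and 26 in Arl4d. A CArG box (CC, then 6 bases of A or T, then GG), the motif of SRF, stood before 1 of the 19 genes, Egr2, against 1.62% of all genes. Egr2 has 5 starts in the table, and the boxes lay before 2 of them; the 30 bases around each are shown.
Egr2, chr10:67537484-67537513, plus strand: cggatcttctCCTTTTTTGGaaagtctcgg
Egr2, chr10:67537787-67537816, plus strand: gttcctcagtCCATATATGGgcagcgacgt
The EGR site (GCG, G or T, GGGCG) stood before 3 of the 19, Nr4a1, Klf2 and Fosb, against 3.47% of all genes, and a MEF2 site before 1, Klf2, against 3.42%. AP-1 sites (TGANTCA) were found before 0 of the 19, against 7.82% of all genes. These are matches of letters in a fixed window, without evidence of binding.

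Of the 25 rapid transcription factors tested, 10 rose, 0 fell by edgeR (14 had an unadjusted p under 0.05) and 15 did not pass; the median log2 fold change of the list was 0.21. Npas4 (ENSMUSG00000045903.10), a factor induced by calcium entry in neurons, had the largest change of the list. It ran from 25.02 through 38.0 to 59.0 CPM in High libraries, and from 7.30 through 11.6 to 43.4 CPM in Low libraries. Its log2 fold change was 1.35 ± 0.24 (edgeR adjusted p = 0.00699), and 1.14 without the vehicle libraries, where the call was lost (adjusted p = 0.0667). Low libraries fell into 9 between 7.30 and 15.3 CPM, below every High library, and 3 between 31.4 and 43.4 CPM, inside the High range. These 3 were day 2 replicate 6, day 3 replicate 4 and day 3 replicate 2, the Low libraries with the highest scores (6.54, 6.49 and 6.06).

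The Egr zinc finger factors moved to different degrees. Egr2 ran from 11.7 through 19.7 to 27.2 CPM in High libraries, and from 1.77 through 8.68 to 15.1 CPM in Low libraries (log2 fold change 1.22 ± 0.20, edgeR adjusted p = 0.00185). Egr1 ran from 287.3 through 382.2 to 529.9 CPM in High libraries, and from 113.7 through 272.9 to 427.1 CPM in Low libraries (log2 fold change 0.61 ± 0.12, edgeR adjusted p = 0.0167). The Egr1 call was lost without day 2 replicate 1, day 1 replicate 3, day 1 replicate 5 or day 3 replicate 5 (log2 fold change 0.54 to 0.59, adjusted p of 0.0591 to 0.0936), and without treatment in the model or without the vehicle libraries (adjusted p = 0.201 and 0.123). Egr4 had a log2 fold change of 0.62 ± 0.10 (edgeR adjusted p = 0.00297). In both Egr1 and Egr4 the classes overlapped over much of their range, with 2 and 3 High libraries above every Low library. Egr3 did not pass. It ran from 128.3 through 196.3 to 304.3 CPM in High libraries, and from 117.1 through 181.0 to 274.6 CPM in Low libraries (log2 fold change 0.12 ± 0.08, edgeR adjusted p = 0.921).

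Nr4a1, an orphan nuclear receptor of the first wave, ran from 84.3 through 137.6 to 175.8 CPM in High libraries, and from 39.2 through 69.9 to 103.7 CPM in Low libraries (log2 fold change 0.93 ± 0.12, edgeR adjusted p = 1.13e-04). Its relative Nr4a3 had 53.4 CPM at the median of High libraries and 50.5 CPM at the median of Low libraries (log2 fold change 0.16 ± 0.12, adjusted p = 0.924), and Nr4a2 had a log2 fold change of 0.06 (adjusted p = 0.936). Btg2, an antiproliferative coregulator, ran from 21.4 through 31.6 to 47.2 CPM in High libraries, and from 12.4 through 16.2 to 23.9 CPM in Low libraries (log2 fold change 1.02 ± 0.13, edgeR adjusted p = 4.09e-05). Ier2, a small nuclear early response protein, ran from 10.9 through 15.5 to 23.2 CPM in High libraries, and from 6.08 through 7.86 to 13.3 CPM in Low libraries (log2 fold change 0.94 ± 0.13, edgeR adjusted p = 1.13e-04). In Btg2 10 and in Ier2 11 of the 12 High libraries lay above every Low library.

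Fosb, the paralogue of Fos, rose by 0.53 ± 0.11 on the log2 scale, and Klf2, a zinc finger factor known for its response to blood flow in endothelium, by 0.42 ± 0.08 (edgeR adjusted p = 0.0457 and 0.0118). The Fosb call was lost in 5 of 15 alternative settings and when any of 16 libraries was left out (log2 fold change 0.45 to 0.58, adjusted p up to 0.194), and the Klf2 call without day 2 replicate 1 (adjusted p = 0.0535), with classes by Fos alone and with 8 against 8 libraries (adjusted p = 0.593 and 0.268). The 15 settings include classes by Arc alone and by the 3 highest of each treatment group, which repeat the main fit. Members that did not pass included Csrnp1 (log2 fold change 0.51 ± 0.11, adjusted p = 0.0543) and Jun (0.19 ± 0.04, adjusted p = 0.0943), with 12.8 and 99.7 CPM at the median of High libraries, against 7.97 and 86.6 CPM at the median of Low libraries. Fosl2, Jund, Srf, Ier5, Klf6 and Myc had log2 fold changes between -0.05 and 0.21 with adjusted p-values of 0.843 to 0.989. Fosl1 was too low to be tested.

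**Figure D3:**
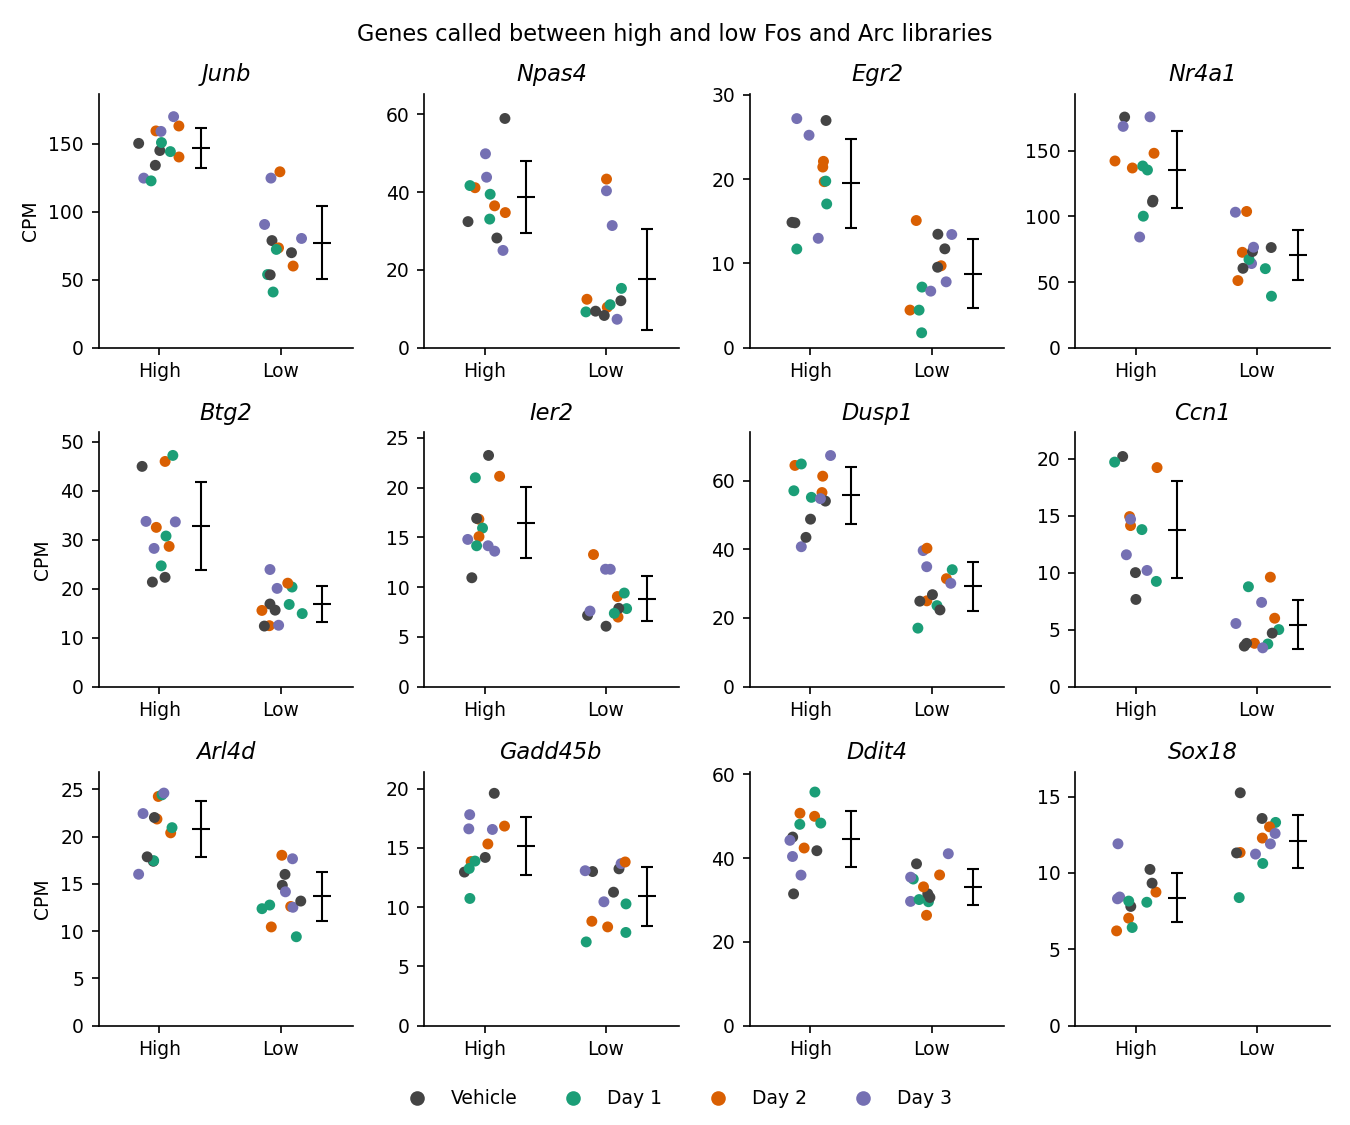
CPM of 12 called genes in each High (left) and Low (right) library, coloured by treatment group, with the mean and SD of 12 libraries as a cross bar and whiskers; each vertical axis is linear and starts at 0. The points of Dusp1 do not overlap between the classes (40.8 CPM and above against 40.3 CPM and below), Npas4 has 3 Low libraries within the High range, and Sox18 is lower in High libraries.

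Of the 16 rapid effectors, 5 rose, 0 fell by edgeR (11 had an unadjusted p under 0.05) and 11 did not pass. Ccn1 (ENSMUSG00000028195.5), a secreted matrix protein of the SRF and YAP response that is made by vascular and other cells, had the largest fold change of all called genes. It ran from 7.65 through 13.9 to 20.2 CPM in High libraries, and from 3.40 through 4.85 to 9.60 CPM in Low libraries (log2 fold change 1.40 ± 0.17, edgeR adjusted p = 4.09e-05). Arl4d, a small GTPase, ran from 16.02 through 21.4 to 24.6 CPM in High libraries, and from 9.41 through 13.0 to 18.03 CPM in Low libraries (log2 fold change 0.62 ± 0.09, edgeR adjusted p = 6.95e-04). Trib1, a pseudokinase scaffold, rose by 0.58 ± 0.11. Gadd45b and Gadd45g, stress proteins linked to DNA demethylation in neurons, rose by 0.50 ± 0.09 and 0.46 ± 0.09 (edgeR adjusted p = 0.00787, 0.00371 and 0.0118 for Trib1, Gadd45b and Gadd45g). The call of Trib1 was lost without the 8 libraries above 100 CPM of Ttr (adjusted p = 0.260), that of Gadd45b without treatment in the model (adjusted p = 0.0595) and that of Gadd45g without the vehicle libraries (adjusted p = 0.116). Plk2 and Rgs2, a kinase and a G protein regulator, had log2 fold changes of 0.13 each (adjusted p = 0.284 and 0.334). Homer1, a postsynaptic scaffold whose short form is an early gene, ran from 209.0 through 241.7 to 349.9 CPM in High libraries, and from 201.0 through 238.1 to 378.8 CPM in Low libraries (log2 fold change -0.04 ± 0.07, adjusted p = 0.974), and gene-level counts do not separate its forms.

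Of the 14 kinase feedback genes, 3 rose, 0 fell by edgeR (7 had an unadjusted p under 0.05) and 11 did not pass. Beside Dusp1, these were Dusp6, the phosphatase of ERK, and Sik1, a salt-inducible kinase that restrains CREB coactivators. Dusp6 ran from 61.0 through 77.1 to 96.0 CPM in High libraries, and from 35.1 through 55.7 to 71.4 CPM in Low libraries (log2 fold change 0.44 ± 0.08, edgeR adjusted p = 0.0103). Sik1 rose by 0.64 ± 0.14 (edgeR adjusted p = 0.0452), a call lost in 7 of 15 alternative settings and without any of 17 libraries (log2 fold change 0.58 to 0.73, adjusted p up to 0.175). Dusp6 lost its call without day 1 replicate 5 (log2 fold change 0.39, adjusted p = 0.0547). Without the 8 libraries above 100 CPM of Ttr, Dusp1 was the 1 gene of this list still called. Dusp5 and Spry4, inhibitors of the same pathway, had log2 fold changes of 0.45 ± 0.12 and 0.27 ± 0.07 (adjusted p = 0.314 and 0.262), while Nab2 and Bhlhe40 stood at 0.09 and 0.16 (adjusted p = 0.932 and 0.883).

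Of the 30 late activity effectors 0 were called in either direction by edgeR, and 2 had an unadjusted p under 0.05, Inhba and Kcna1, both below 0. The median log2 fold change of the list was 0.02, with 18 of 30 above 0, against 8211 of 16765 over all genes tested. Bdnf, the neurotrophin induced by activity, ran from 23.5 through 26.4 to 31.0 CPM in High libraries, and from 19.1 through 25.9 to 31.1 CPM in Low libraries (log2 fold change 0.06 ± 0.06, adjusted p = 0.937). Nptx2, a secreted synaptic pentraxin, ran from 50.1 through 63.1 to 88.5 CPM in High libraries, and from 45.5 through 60.6 to 89.7 CPM in Low libraries (log2 fold change 0.07 ± 0.09, adjusted p = 0.942). Vgf, Nptx1, Scg2 and Pcsk1, secreted peptides and their processing enzyme, had log2 fold changes of -0.02 to 0.03. The largest size in the list was that of Inhba, -0.24 ± 0.11 (adjusted p = 0.835).

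**Figure D4:**
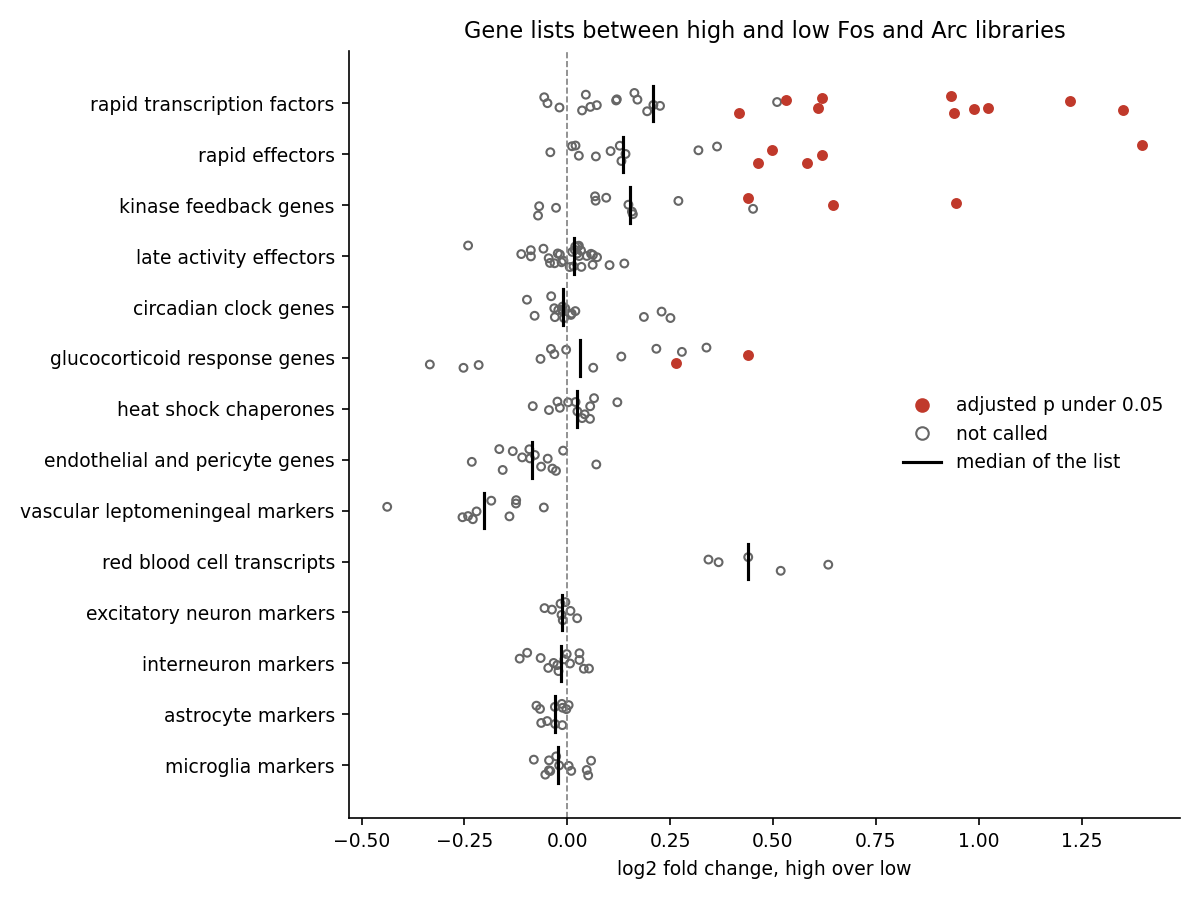
Log2 fold change of High over Low libraries for each tested member of 14 gene lists, 1 point a gene, red where the edgeR adjusted p was under 0.05, with the median of each list as a black bar. Called members lie in the 3 upper lists and, for Ddit4 and Nfkbia, in the glucocorticoid list, while the late effectors centre on 0.02 and the vascular leptomeningeal markers on -0.20.

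The other 6 called genes lay outside the 3 early lists. Apold1, an early response gene of vascular endothelium, ran from 4.21 through 6.28 to 9.02 CPM in High libraries, and from 2.97 through 3.96 to 5.04 CPM in Low libraries (log2 fold change 0.70 ± 0.11, edgeR adjusted p = 0.00158). Ddit4, an inhibitor of mTORC1 that responds to hypoxia and glucocorticoids, ran from 31.4 through 44.6 to 55.7 CPM in High libraries, and from 26.3 through 32.3 to 41.0 CPM in Low libraries (log2 fold change 0.44 ± 0.07, edgeR adjusted p = 0.00352). Nfkbia, the inhibitor of NF-kB, rose by 0.26 ± 0.06 (edgeR adjusted p = 0.0435), a call lost in 5 of 15 alternative settings and without any of 15 libraries (adjusted p up to 0.175). Ddit4 and Nfkbia were the 2 called members of 14 glucocorticoid response genes, of which 5 had an unadjusted p under 0.05 and 7 lay above 0. The list ran from -0.33 to 0.44 with a median of 0.03. Without the 8 libraries above 100 CPM of Ttr the median was 0.13, with 0 called. Fkbp5 and Tsc22d3 in the same list had log2 fold changes of -0.07 and 0.13 (adjusted p = 0.942 and 0.909). Tob2, a relative of Btg2, and Pim3, a serine kinase, were outside the rule for named genes and are given here because they complete the 24; they rose by 0.25 ± 0.04 and 0.27 ± 0.05 (edgeR adjusted p = 0.00367 and 0.0168). The Pim3 call was lost without day 2 replicate 1, day 2 replicate 3, day 1 replicate 3 or day 3 replicate 5 (log2 fold change 0.24 to 0.27, adjusted p of 0.0508 to 0.0859), with the first digits of the animal number fitted (0.26, adjusted p = 0.0733) and without the vehicle libraries (0.30, adjusted p = 0.0832). Without the 8 libraries above 100 CPM of Ttr, the calls of Apold1, Ddit4, Nfkbia, Tob2 and Pim3 were lost.

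Sox18 (ENSMUSG00000046470.6), a transcription factor of endothelial cells, was the 1 gene that fell. It ran from 6.20 through 8.23 to 11.9 CPM in High libraries, and from 8.38 through 12.1 to 15.2 CPM in Low libraries (log2 fold change -0.52 ± 0.09, edgeR adjusted p = 0.00352). In 7 of the 12 High libraries it lay below every Low library. With classes set by Fos alone its log2 fold change was -0.35 and the call was lost (adjusted p = 1.00), which left 0 genes called lower by edgeR there, with 650 genes of either sign at an unadjusted p under 0.05. Of 14 endothelial and pericyte genes 0 were called by edgeR (4 had an unadjusted p under 0.05), 13 of 14 lay below 0, and the median log2 fold change was -0.08. Their summed level was 362 to 460 CPM in High libraries and 391.8 to 504 CPM in Low libraries. All 10 vascular leptomeningeal markers lay below 0, with a median of -0.20 and 0 called by edgeR (2 had an unadjusted p under 0.05); they summed to 1052 to 1559 CPM in High libraries and 802 to 1933 CPM in Low libraries. The 5 red blood cell transcripts all lay above 0, with a median of 0.44 and 0 called by edgeR (4 had an unadjusted p under 0.05); they summed to 88.2 to 309 CPM in High libraries and 51.7 to 239 CPM in Low libraries. With no filter on low counts, 4 of the 5 red blood cell transcripts were called higher, and 4 of the 10 vascular leptomeningeal markers, 1 of the 14 endothelial and pericyte genes and 2 of the 11 oligodendrocyte markers were called lower. The part of blood and vessel content in the called genes was not tested.

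The lists of neurons and glia had medians nearer 0, but most of their members also lay below 0. Above 0 lay 2 of 8 excitatory neuron, 5 of 14 interneuron, 1 of 11 astrocyte, 1 of 11 oligodendrocyte and 5 of 12 microglia markers. The median log2 fold change was -0.01 for the excitatory neuron markers, -0.01 for the interneuron markers, -0.03 for the astrocyte markers, -0.06 for the oligodendrocyte markers and -0.02 for the microglia markers, with 0 members called by edgeR in any of them (0, 1, 1, 1 and 0 had an unadjusted p under 0.05). Superficial entorhinal and deep cortical layer markers had medians of -0.01 and 0.04. Gfap, the astrocyte filament, stood at a median of 221 CPM in High libraries and 241 CPM in Low libraries (log2 fold change -0.05 ± 0.06, adjusted p = 0.942). The 12 choroid plexus markers had a median of 0.15 with 0 called by edgeR (0 at an unadjusted p under 0.05); the median was 0.41 by DESeq2, 0.32 with the animal digits fitted, -0.13 by limma voom and -0.05 over the 8 still tested without Ttr-rich libraries, so its sign changed between settings. Ttr had a log2 fold change of 0.90 ± 1.52 (adjusted p = 0.967). Among 17 clock genes 0 were called by edgeR (3 had an unadjusted p under 0.05). Per1, a clock gene that neuronal activity also induces, ran from 84.9 through 145 to 182 CPM in High libraries, and from 74.8 through 112 to 157 CPM in Low libraries (log2 fold change 0.25 ± 0.11, adjusted p = 0.833). Heat shock chaperones and hypoxia genes had medians of 0.02 and 0.004 with 0 called by edgeR (1 at an unadjusted p under 0.05 in each). The transgene marker EYFP had a log2 fold change of 0.01 ± 0.08 and the glycine receptor gene Glra1 of 0.09 ± 0.09 (adjusted p = 0.991 and 0.942).

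With the score itself in the model in place of the classes, 35 genes rose along it (0.209% of genes) and 7 fell (0.0418%), and all 24 genes called between the classes were among these 42. The score spanned 3.315 units between the lowest and the highest library. Dusp1 changed by 0.64 ± 0.03 on the log2 scale per unit of score, Junb by 0.68 ± 0.03, Egr2 by 0.97 ± 0.06 and Egr1 by 0.50 ± 0.03 (edgeR adjusted p = 1.77e-15, 6.37e-15, 1.32e-12 and 4.94e-14). Members of the early lists gained by this fit were Csrnp1, Dusp5, Spry4, Ptgs2, which encodes the inducible cyclooxygenase, and Tiparp (0.20 to 0.36 per unit, adjusted p of 0.00144 to 0.0402), and Sgk1 of the glucocorticoid list (0.26 per unit, adjusted p = 0.00619). The remaining gains on the rising side, chosen after their values were seen, were 1700016P03Rik, Rasl11a, Chrm4, Midn, Adrb1 and Mcl1, led by 1700016P03Rik at 0.58 per unit (adjusted p = 6.20e-05). 1700016P03Rik ran from 4.48 through 5.54 to 7.70 CPM in High libraries, and from 1.20 through 3.40 to 7.34 CPM in Low libraries.

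The falling side gained 6 genes, also named after their values were seen. Myh11 and Acta2 encode contractile proteins of smooth muscle, Cldn5 the tight junction protein of brain endothelium, Vim the filament of mesenchymal and endothelial cells, and Tbx3 and Hic1 transcription factors. They fell by 0.23 (Myh11), 0.22 (Acta2), 0.16 (Cldn5), 0.14 (Vim), 0.29 (Tbx3) and 0.23 (Hic1) on the log2 scale per unit of score, with edgeR adjusted p of 0.0088 to 0.0483. Myh11 ran from 8.54 through 10.9 to 12.47 CPM in High libraries, and from 9.39 through 12.6 to 18.7 CPM in Low libraries. Cldn5 ran from 33.2 through 39.96 to 55.5 CPM in High libraries, and from 32.1 through 49.96 to 57.7 CPM in Low libraries. In the comparison of classes their adjusted p-values were 0.167 to 0.813, so these genes passed the threshold along the gradient and not between the classes.

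Within each treatment group the classes held 3 libraries each. Dusp1, Ccn1, Btg2, Ier2 and Tob2 had all 3 High libraries above all 3 Low libraries in each of the 4 groups. They were the only 5 of all genes tested (0.0298%) to do so. In the same sense 1 other gene was lower (0.00596%), Lrrc29. It did not pass the test (log2 fold change -0.57, edgeR adjusted p = 0.190) and was named after its values were seen. Dusp1 averaged 48.8 ± 5.28 CPM in High and 24.7 ± 2.23 CPM in Low vehicle libraries (SD, n = 3 each). At day 1 it averaged 59.0 ± 5.15 CPM in High and 24.9 ± 8.59 CPM in Low libraries, at day 2 60.8 ± 3.98 CPM in High and 32.3 ± 7.69 CPM in Low libraries, and at day 3 54.3 ± 13.3 CPM in High and 34.9 ± 4.77 CPM in Low libraries. The classes of Npas4 were apart in vehicle, at 39.9 ± 16.7 CPM in High and 9.91 ± 1.95 CPM in Low libraries, and at day 1, at 38.1 ± 4.47 CPM in High and 11.8 ± 3.10 CPM in Low libraries. They overlapped at day 2, at 37.5 ± 3.31 CPM in High and 22.1 ± 18.5 CPM in Low libraries, and at day 3, at 39.6 ± 13.0 CPM in High and 26.4 ± 17.1 CPM in Low libraries. Of the genes not called between the classes, Egr3, Bdnf, Homer1 and Nptx2 had all 3 High above all 3 Low libraries at day 3 only. Their log2 differences there were 0.35, 0.22, 0.19 and 0.44. Per1 was apart at day 1 only and EYFP in vehicle only, both higher in High libraries. Ttr was apart in vehicle only and Gfap in vehicle and at day 1, both lower in High libraries. How many of all genes were apart within a single group was not counted, so these separations are a description and show no pattern of a day.

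Whether the difference between the classes varied with treatment was tested with a class by treatment interaction. No gene was called by edgeR (0 of 16765), and 433 had an unadjusted p under 0.05; a likelihood ratio test in DESeq2 also called 0, with 368 at an unadjusted p under 0.05. The unadjusted edgeR interaction p was 0.0163 for Npas4, 0.0321 for Nptx2, 0.0397 for Ddit4 and 0.0448 for Ier2 (adjusted p = 0.9998 for each).

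Among the 6 pairs of leading digits of the animal number that held both classes, the mean of High lay above the mean of Low in 6 of 6 for 20 of the 23 genes that rose. These genes were called on the same libraries, so the count is a description and no separate support. The share of all genes tested that were higher in 6 of 6 was not counted. The log2 difference was 0.71 to 1.46 for Dusp1, 0.53 to 1.80 for Junb, 0.71 to 2.16 for Ccn1 and 0.49 to 2.56 for Npas4. Fosb, Klf2 and Gadd45g were higher in 5 of 6, and Sox18 was lower in 5 of 6, with differences of -0.61 to 0.05.

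Day effects were read from the same fit, with the class held in the model, and the 3 day comparisons share the vehicle libraries. At day 1 against vehicle 12 genes were called (0.0716%), 2 higher and 10 lower. At day 2 against vehicle 8 were called (0.0477%), all higher, and at day 3 against vehicle 101 (0.602%), 99 higher and 2 lower. Without the class in the model the counts were 11, 11 and 103, and without the 8 libraries above 100 CPM of Ttr they were 25, 3 and 41. The day 1 count also moved with single libraries, to 2, 4, 6 and 7 without vehicle replicate 6, day 1 replicate 1, vehicle replicate 4 and day 1 replicate 3, and to 21, 21, 23 and 28 without vehicle replicate 1, day 2 replicate 3, day 3 replicate 1 and vehicle replicate 3. Of the 24 genes called between High and Low, 0 were called on any day by edgeR. The nearest at day 1 were Gadd45b, Fosb, Egr4, Egr1 and Egr2, with log2 fold changes of -0.44, -0.56, -0.48, -0.54 and -0.70 against vehicle (adjusted p = 0.172, 0.192, 0.247, 0.265 and 0.462).

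Egr3 was called between day 1 and vehicle and not between the classes. Egr3 ran from 117.1 through 138.1 to 175.2 CPM in day 1 libraries, and from 187.5 through 213.3 to 304.3 CPM in vehicle libraries. Its log2 fold change with the class fitted was -0.74 ± 0.11 (n = 6 each; edgeR adjusted p = 0.00787), against 0.12 ± 0.08 for High over Low. Of the 30 late effectors 4 fell at day 1, Dio2, the enzyme that activates thyroid hormone, Grasp, a postsynaptic scaffold, Kcnh3, a potassium channel, and Synpo, a dendritic spine protein. Their log2 fold changes were -0.52 ± 0.09, -0.36 ± 0.07, -0.27 ± 0.05 and -0.26 ± 0.05 (edgeR adjusted p = 0.00927, 0.0446, 0.0148 and 0.0328), and those for High over Low were -0.06, 0.02, -0.04 and -0.01. Leaving out each of the 24 libraries in turn, Egr3 was called at day 1 in all 24 fits (log2 fold change -0.82 to -0.64), Kcnh3 in 19 (-0.31 to -0.25), Synpo in 17 (-0.28 to -0.24) and Grasp in 13 (-0.39 to -0.32), and Dio2 lost its call without day 1 replicate 1 or vehicle replicate 6 (-0.58 to -0.45 over all). The list's median at day 1 was -0.16 with 23 of 30 below 0, against a median of 0.001 and 8304 of 16765 over all genes.

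Homer1 ran from 201.0 through 219.1 to 243.9 CPM in day 1 libraries, and from 234.3 through 270.8 to 378.8 CPM in vehicle libraries (log2 fold change -0.46 ± 0.10, adjusted p = 0.0784). Nptx2 ran from 46.4 through 51.3 to 57.7 CPM in day 1 libraries, and from 55.4 through 71.7 to 89.7 CPM in vehicle libraries (log2 fold change -0.50 ± 0.12, adjusted p = 0.112). Neither passed the threshold, and in 2 of the 24 fits without 1 library each of them did. Dusp1, Junb and Npas4 had log2 fold changes of 0.15, -0.15 and 0.05 at day 1 (adjusted p = 0.885, 0.905 and 0.987). The difference between a gene's day effect and its class effect was not tested.

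**Figure D5:**
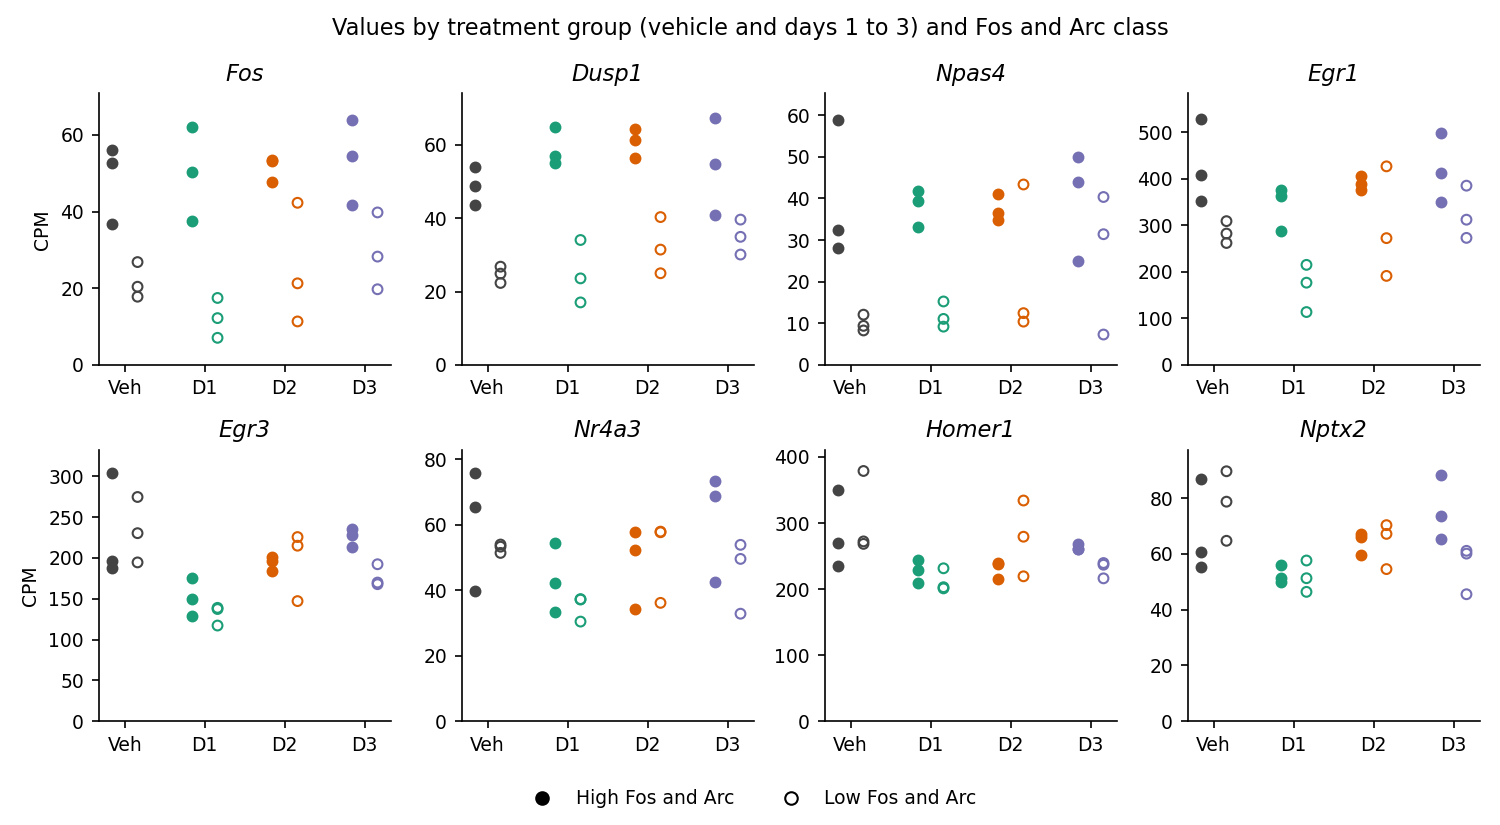
CPM of 8 genes in each library by treatment group (vehicle, then days 1 to 3), with High libraries as filled points left of Low libraries as open points; each vertical axis is linear and starts at 0. Dusp1 has its filled points above its open points in all 4 groups, as has Fos, which was used to choose the classes, and Npas4 in vehicle and at day 1 with overlap at days 2 and 3, whereas Egr3 is lower at day 1 (117.1 to 175.2 CPM) than in vehicle (187.5 to 304.3 CPM) in both classes.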

How the data were processed

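The authors deposited raw counts of reads for each gene, as whole numbers, in 1 table of 24 library columns with 55417 rows, of which 55416 carry an Ensembl identifier and the last is the EYFP marker. The submitters' processing notes name fastp 0.23.1, STAR 2.7.9a, DESeq2 1.32.0 and mm39; which program counted reads, on which annotation release and with what use of strand is not given in the sources used here, so reads of overlapping or antisense genes, and of near-identical genes such as the haemoglobins, cannot be told apart. Symbols were found for 52083 identifiers.

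Groups came from the treatment labels. Each library has its own animal number, but the labels do not say that these are separate animals, in which case p-values measure only the spread between libraries. Chi-square over degrees of freedom was 3.71 to 12.6 over 60 library pairs within groups, so none agreed within sampling noise. Classes were the 12 highest and the 12 lowest libraries by the mean log2(CPM + 1) of Fos and Arc.

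Counts were tested with edgeR 4.0.16 in R 4.3.3: quasi-likelihood, two-sided, TMM factors, filterByExpr (minimum count 10, minimum total 15), with class, treatment group and sex in the model over all 24 libraries. The filter kept 16767 genes, and Fos and Arc were set aside from the 16765 tested. P-values were adjusted over these by Benjamini and Hochberg's method, and genes were called under 0.05. The biological coefficient of variation was 8.37%. Depth of 16.6 to 23.7 M reads limits the precision of low genes. Log2 fold changes carry a standard error taken from the test, as the absolute log2 fold change over the square root of the F statistic. CPM are given without TMM factors. The step was tested on simulated data. DESeq2 1.42.0 and limma voom (limma 3.58.1) were alternatives.

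The classes and all 22 gene lists were chosen with earlier results of these data known. Named genes were the called list members, the 10 largest rises and 10 largest falls among called genes whose mean log2 CPM reached 1, the 10 lowest p-values, and Fosb, Junb, Egr1 to Egr4, Npas4, Nr4a1, Nr4a3, Dusp1, Bdnf, Homer1, Nptx2, Per1, Ttr, Gfap, Glra1 and EYFP. Members whose values a list count turns on were also named. The annotation at hand is of another build than mm39, so no coordinates of the counted genes are given; promoter sequences are RefSeq's on GRCm38.p6, and searches used Python 3.11.15.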

Additional observations from a re-analysis of the deposited data

Results flagged for a closer look

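In groups of 6 libraries, a value was marked where its gap to the nearest other library took more of the group's range than Dixon's 95% critical value for 6 samples. Of 148 groups tested, 7 were marked, and chance marks about 1 in 20. Of these, 4 were High libraries of the vehicle group: Btg2 was 45.0 CPM in vehicle replicate 1, with the next at 22.3 CPM, and in vehicle replicate 6 Egr2 was 26.97 CPM, with the next at 14.9 CPM, Gadd45b 19.6 CPM, with the next at 14.2 CPM, and Trib1 41.9 CPM, with the next at 21.3 CPM. Ttr was 1158 CPM in vehicle replicate 5, a Low library, with the next at 18.9 CPM. Gfap was 256 CPM in day 1 replicate 1, the library with the lowest Fos and Arc, with the next at 219 CPM. Gadd45g was 10.8 CPM in day 3 replicate 5, a Low library, with the next at 17.3 CPM.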

How the results depend on the processing

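The count of 24 genes between the classes was 19 to 32 under the other factors, the stricter filter, other tools, other covariates, classes by Fos alone and 8 against 8 libraries, 18 without the 8 libraries above 100 CPM of Ttr and 17 without vehicle. It was 117 with no filter on low counts (67 higher, 50 lower, 36064 genes tested) and 42 with the score as a continuous covariate (35 higher, 7 lower). Leaving out 1 library gave 18 (without day 2 replicate 1) to 29. Calls of Btg2, Ccn1, Egr4, Ier2, Junb, Egr2, Arl4d, Nr4a1 and Dusp1 held in all 15 alternatives and all 24 fits without 1 library. Among the 15, classes by Arc alone and by the 3 highest of each treatment group were the main classes again. Those alternatives could not change a call. Klf2 was lost without day 2 replicate 1 and Dusp6 without day 1 replicate 5, and Egr1 and Pim3 without any of 4 libraries each. Without the Ttr-rich libraries day 1, day 2 and day 3 had 25, 3 and 41 calls; without 1 library they had 2 (vehicle replicate 6) to 28 (vehicle replicate 3), 6 to 10 and 73 to 108. The interaction had 0 calls with RLE factors, with the continuous score and in the 24 fits without 1 library, the settings in which it was run. The causes were not tested. No paired analysis was possible because the replicate numbers were given in accession order and pair no libraries. Depth limits low genes: Fosl1 could not be tested, and Apold1 rests on 2.97 to 9.02 CPM. Genes that did not pass changed sign as follows. Homer1 was at 0.0098 with animal digits, 0.0558 by Fos alone and 0.0181 per unit of score. Ttr was at -0.45 without sex, -0.43 by Fos alone, -0.27 with 8 against 8 and -0.0736 without Ttr-rich libraries. Gfap was at 0.0165 by Fos alone. EYFP was at -0.0163 per unit of score, -0.0179 without Ttr-rich libraries and -0.0858 without vehicle. Leaving out 1 library, Homer1 ran from -0.0787 to 0.0269, Nptx2 from -0.0012 to 0.13, Ttr from -0.96 to 1.76 and EYFP from -0.0388 to 0.054.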
